A study of Rattus norvegicus with 8 samples.

Results

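The genes described here handle lipoproteins and cholesterol in the brain. The 10 genes were taken by name from 15159 rat genes with a named probe: *Apoe*, *Apod*, *Clu*, *Abca1*, *Abcg1*, *Lcat*, *Lpl*, *Nr1h3*, *Nr1h2* and *Plin2*. All 10 were measured by 1 probe each, the only named probe of its gene. The samples were hypothalamic tissue blocks that included the arcuate nuclei, from male F344N rats, an inbred photoperiod-responsive strain, held in short days (SD). In the treated group, 4 rats received all-*trans* retinoic acid (RA) into the third ventricle, and 4 control rats received vehicle. Tissue was taken 24 hrs later, and the labels and methods used here give no genetic change in either group. The labels give the RA concentration as 1e-05 M and the vehicle as saline, whereas the study's methods give a higher concentration for these rats and DMSO in saline as the vehicle. Every array compared an RA sample with a vehicle sample in 2 colours with dye-swap, so that RA was in Cy5 on arrays 1, 3, 6 and 8 and in Cy3 on arrays 2, 4, 5 and 7.

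In the brain, cholesterol is made locally, and glia secrete it in lipoprotein particles that carry apolipoproteins. The transporters ABCA1 and ABCG1 load such particles with cholesterol, LCAT esterifies it, and endocytic receptors take the particles up. The liver X receptors, encoded by *Nr1h3* and *Nr1h2*, are oxysterol sensors that pair with retinoid X receptors and activate *Abca1*, *Abcg1*, *Apoe* and *Lpl* in many cell types. Excess lipid is stored in droplets, which PLIN2 coats.

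*Plin2* was the only 1 of the 10 genes called at the methods' threshold, an unadjusted limma p under 0.01, and its level was 1.63-fold higher after RA. It and *Nr1h3*, which just missed that threshold, were the 2 genes whose log2 ratio of RA over vehicle was above 0 on all 8 arrays. *Clu*, *Apod*, *Abca1* and *Lcat* had log2 fold changes between -0.24 and 0.25 that were not called, and *Apoe*, *Abcg1*, *Lpl* and *Nr1h2* lay within 0.05 of 0. Across all named genes 4.31% were called, 3.52% as higher after RA and 0.792% as lower, so 1 call among 10 genes does not set the group apart. None of the 10 reached an adjusted p under 0.05 in limma, and neither did any of the 30367 probes (0 of them, lowest adjusted p = 0.222), although 3290 probes had an unadjusted p under 0.05.

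Several features of the whole series touch these values. Agilent's mark for a signal well above background was set for 57.4% to 74.6% of probes per array in RA and for 61.2% to 74.5% in vehicle. At the methods' threshold 3.25% of all probes were called. All arrays lay on 1 slide, arrays 1 to 4 in its first row and arrays 5 to 8 in its second, and the rows carry different hybridisations, so that row and rat cannot be told apart. Arrays 6 and 7 stood apart in choroid plexus genes, with list medians of -1.51 and -1.44 in log2 ratio. The remaining arrays gave 0.02 to 0.46. Arrays 5 and 8 stood apart in hypothalamic neuropeptide genes, with list medians of -0.59 and -0.64, against -0.05 to 0.33 on the remaining arrays. The median log2 fold change of all named genes was -0.0045. Because blocks of tissue were measured, fewer cells of a type and less RNA per cell cannot be told apart. The labels and methods do not state which arrays share RNA. Therefore each gene was tested on 4 pair means in all 24 pairings of the dye orders, and the largest p was kept. Standard errors (SE) come from that fit. *Crym*, a tanycyte marker, had log2 ratios of 0.15 and 0.17 on arrays 1 and 2 and 1.45 and 1.37 on arrays 3 and 4. On arrays 5 and 8 it was at -0.12 and -0.23, and on arrays 6 and 7 at 0.64 and 0.69. Such likeness was not seen in every gene, and whether each of these couples re-used the same RNA was not tested.

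**Figure D1:**
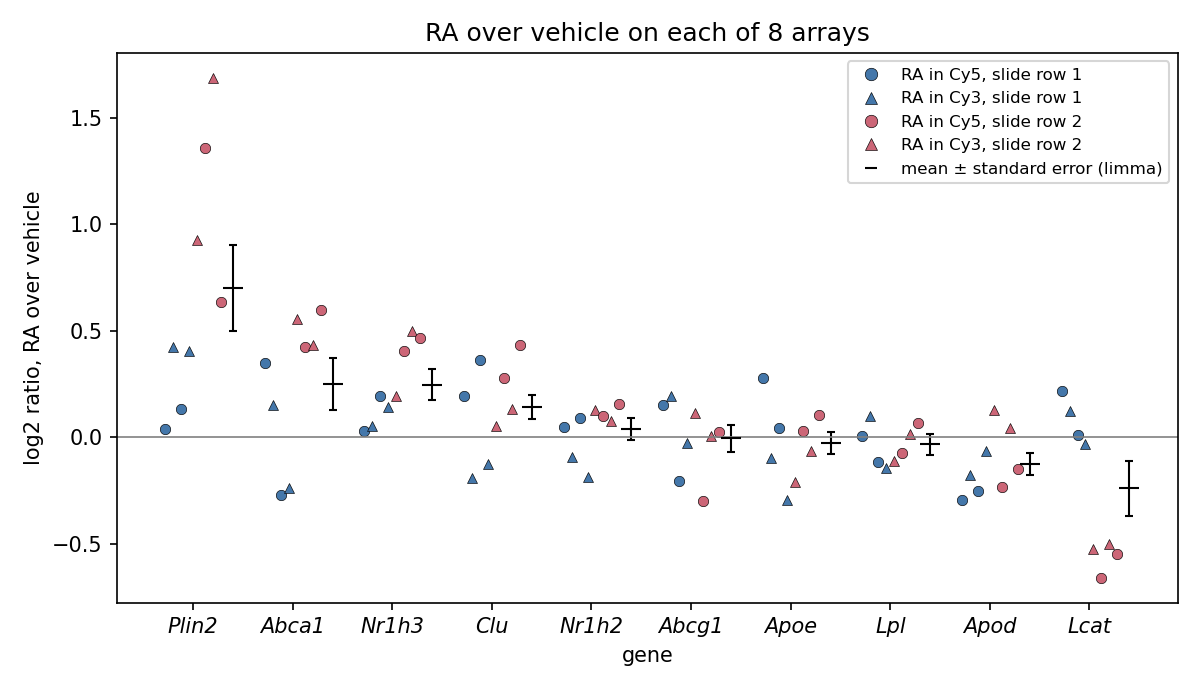
The vertical axis gives the log2 ratio of RA over vehicle, and each point is 1 of 8 arrays for each of the 10 genes, with circles for RA in Cy5, triangles for RA in Cy3, blue for slide row 1 and red for slide row 2. Black bars are limma means ± SE. *Plin2* and *Nr1h3* lie above 0 on every array, and *Lcat* lies below 0 on every array of row 2.

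Sequence upstream of the transcription start is shown for *Plin2*, the called gene, and for *Abca1*, a textbook liver X receptor target. RefSeq promoters of the GRCr8 build (250 bases before and 50 after a start) were found for 7 of the 10 genes, 10 promoters in all. Capitals mark the E-box CACGTG and, in *Abca1* only, further downstream the best imperfect direct repeat of the nuclear receptor element with 4 bases between (DR4) and then the TATA box. The 250 bases before the first start of *Plin2* are chr5:106229019-106229268, minus strand, and those of *Abca1* are chr5:72596474-72596723, minus strand.
Plin2: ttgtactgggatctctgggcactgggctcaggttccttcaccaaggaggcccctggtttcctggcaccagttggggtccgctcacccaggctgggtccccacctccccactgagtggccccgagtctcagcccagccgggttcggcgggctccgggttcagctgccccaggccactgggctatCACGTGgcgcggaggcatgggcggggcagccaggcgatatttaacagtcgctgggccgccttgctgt
Abca1: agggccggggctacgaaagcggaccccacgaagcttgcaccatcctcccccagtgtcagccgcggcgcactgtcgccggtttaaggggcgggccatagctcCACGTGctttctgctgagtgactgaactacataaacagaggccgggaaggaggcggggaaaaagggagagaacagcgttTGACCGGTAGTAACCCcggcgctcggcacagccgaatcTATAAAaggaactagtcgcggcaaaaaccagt

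No promoter of the 7 genes held the nuclear receptor element as the exact letters AGGTCA on either strand. Of 33469 promoters of the same 300 bases, 16.2% did. Accordingly none held it as an exact direct repeat with 1, 4 or 5 bases between. The E-box letters lay at -67 to -62 in *Plin2* and at -149 to -144 in *Abca1*, and 6.42% of all promoters held them. The TATA box, searched as TATAAA, lay at -32 to -27 in *Abca1* and also occurred in *Apod*, against 14.2% of all promoters. The DR4-like stretch of *Abca1*, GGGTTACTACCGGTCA on the opposite strand at -70 to -55, had 3 mismatches to a pair of AGGTCA elements spaced by 4 bases. A match with at most 3 mismatches occurred in 21.9% of all promoters, among them that of *Lcat*. The E-box, the TATA box and imperfect repeats were searched for after the sequences had been seen. A match in letters is no evidence of a bound factor, and the lack of an exact match does not show that none binds.

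*Plin2* encodes the perilipin that coats lipid droplets in most cells. Its log2 ratios on arrays 1 to 8 were 0.04, 0.42, 0.13, 0.40, 0.93, 1.36, 1.69 and 0.64. Every array of slide row 2 lay above every array of row 1, and arrays 6 and 7 were highest. In log2 intensity the vehicle channels ranged from 9.81 to 10.15 with a median of 10.05, and the RA channels from 10.11 to 11.62 with a median of 10.61. The lowest RA channel thus fell within the range of vehicle, and the other 7 lay above it. The log2 fold change was 0.70 (SE 0.20, adjusted p = 0.306 in limma), and all 24 pairings gave an unadjusted p under 0.01. The exact sign-flip test on 4 pair means gave p = 0.125, the smallest that 4 pairs allow. Without arrays 6 and 7, which differed in choroid plexus genes, the log2 fold change was 0.43 (SE 0.11) and was called, and without arrays 5 and 8 it was 0.68 (SE 0.25) and was not. The call was lost in 7 of 16 fits that left out an array of each dye order and in 7 of 17 other alternatives.

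Both liver X receptor genes were measured, and they differed in range. *Nr1h3*, which encodes the liver X receptor alpha of liver and macrophages, had log2 ratios of 0.03, 0.05, 0.20, 0.14, 0.19, 0.40, 0.50 and 0.47 on arrays 1 to 8. Its log2 intensity was 7.91 to 8.50 in vehicle (median 8.29) and from 8.10 upwards in RA (median 8.48). The mean over the 8 RA channels was 8.53 (SD 0.31). By dye-swap these channels re-used the RNA of fewer rats, so the SD is not that of 8 independent samples. Array 7 was highest in RA, and the RA channels of arrays 3, 6, 7 and 8 lay above all vehicle channels. The RA level was the higher on each array, but the groups overlapped across arrays, and the array with the lowest vehicle level also had the lowest RA level. The log2 fold change was 0.25 (SE 0.07, limma adjusted p = 0.308). Its unadjusted p was under 0.01 in 23 of 24 pairings. *Nr1h2*, which encodes the more widely expressed liver X receptor beta, had log2 ratios from -0.19 to 0.16 with a median of 0.09. Its log2 fold change was 0.04 (SE 0.05, limma adjusted p = 0.854).

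Being above 0 on all 8 arrays was seen in 2 of 10 genes, *Plin2* and *Nr1h3*, and in 4.08% of all named genes. At an unadjusted p under 0.05 there were 3 of 10 genes, *Plin2*, *Nr1h3* and *Clu*, against 13.0% of named genes. The median log2 fold change of the 10 was 0.02, with 5 genes above 0 and 5 below, and 47.7% of named genes were above 0. None of the 10 was below 0 on all 8 arrays (0 of 10), which 1.79% of named genes were. The 10 genes were chosen with earlier results of these data known, so the shares are a description only.

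**Figure D2:**
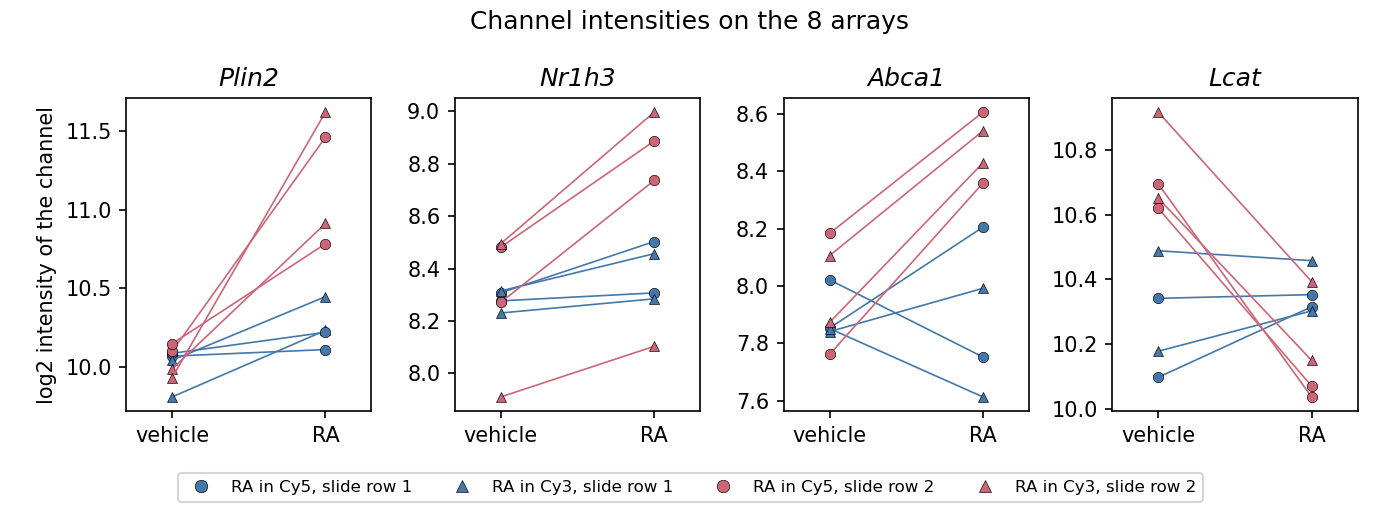
Each panel gives the log2 intensity of the vehicle and the RA channel on the 8 arrays for 1 gene, with a line joining the channels of an array, and colours and symbols for slide row and dye order. The vertical axes differ between panels, and RA lies above vehicle on every array for *Plin2* and *Nr1h3* but only on some arrays for *Abca1*.

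The cholesterol transporters did not move alike across arrays. *Abca1*, which encodes the transporter that lipidates apolipoproteins, had log2 ratios of 0.35, 0.15, -0.27 and -0.24 on arrays 1 to 4 and 0.56, 0.42, 0.43 and 0.60 on arrays 5 to 8. Its log2 intensity was 7.76 to 8.18 in vehicle (median 7.86) and 7.61 to 8.61 in RA (median 8.28). All 4 RA channels of row 2 lay above every vehicle channel, while arrays 3 and 4 had RA below vehicle. Over 8 arrays the log2 fold change was 0.25 (SE 0.12, limma adjusted p = 0.529). Without arrays 3 and 4 it was 0.42 and was called, the only such case among 16 fits that left out arrays. *Abcg1*, which encodes a transporter to mature lipoprotein particles, had log2 ratios from -0.30 to 0.19 with a median of 0.02 and a log2 fold change of -0.0043 (SE 0.06, limma adjusted p = 0.993).

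*Lcat*, the enzyme that esterifies cholesterol on particles, was below 0 on every array of slide row 2 and above 0 on 3 of the 4 arrays of row 1. Its log2 ratios were 0.22, 0.12, 0.01 and -0.03 on arrays 1 to 4, and -0.52, -0.66, -0.50 and -0.55 on arrays 5 to 8. The spread within row 2 was small beside its distance from row 1. In log2 intensity vehicle ranged from 10.10 to 10.92 (median 10.55) and RA from 10.04 to 10.46 (median 10.31). Over all arrays the log2 fold change was -0.24 (SE 0.13, limma adjusted p = 0.573). With slide row as a block both *Lcat* and *Nr1h3* were called, at the same fold changes (SE 0.05 for each). Since row and rat cannot be told apart, this block also takes differences between rats out of the error. More probes were called in that fit than as reported, and the *Lcat* value averages row means of 0.08 and -0.56. *Lpl*, the lipase of triglyceride-rich lipoproteins, had log2 ratios from -0.14 to 0.10 and a log2 fold change of -0.03 (SE 0.05, limma adjusted p = 0.891). Its probe was well above background in 6 of 8 RA channels and in all 8 vehicle channels, and was the only 1 of the 10 not measured above background throughout.

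The difference between slide rows was tested with limma on 2 pair means per row, with the largest p over pairings within rows, a comparison added after the ratios had been seen. For *Plin2* the row means were 0.25 and 1.15, a difference of 0.90 (limma adjusted p = 0.381). For *Lcat* they were 0.08 and -0.56, a difference of -0.64 (limma adjusted p = 0.132). *Abca1* differed by 0.50 (limma adjusted p = 0.586) and *Nr1h3* by 0.29 (limma adjusted p = 0.623). At an unadjusted p under 0.01 there were 2 of 10 genes, *Plin2* and *Lcat*, against 3.01% of named genes. In row 2 alone all 4 of these genes were called. They had been singled out by the same ratios, and a fit of a single row rests on 2 pair means. The share of all genes called in row 2 alone is not given, so these calls are a description only. In row 1 alone *Plin2* was at 0.25 (SE 0.07) and was called, with *Nr1h3* at 0.11, *Abca1* at -0.0012 and *Lcat* at 0.08.

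The apolipoprotein genes were not called, and the ratios of *Apoe* and *Clu* were higher with RA in Cy5 than with RA in Cy3. *Apoe*, which encodes the main apolipoprotein of brain lipoproteins, had log2 ratios from -0.30 to 0.28 with a median of -0.02. All 4 arrays with RA in Cy5 were above 0 and all 4 with RA in Cy3 were below 0. Its log2 intensity was 16.36 to 16.64 in vehicle and 16.20 to 16.64 in RA, and the log2 fold change was -0.03 (SE 0.05, limma adjusted p = 0.927). *Clu*, which encodes clusterin, the apolipoprotein J, had log2 ratios of 0.20, 0.36, 0.28 and 0.43 with RA in Cy5 (arrays 1, 3, 6 and 8). With RA in Cy3 (arrays 2, 4, 5 and 7) they were -0.19, -0.13, 0.05 and 0.13, and the dye orders did not overlap. Over both orders, which cancels a dye effect, the log2 fold change was 0.14 (SE 0.05, limma adjusted p = 0.411). *Apod*, which encodes a lipocalin made by glia, had log2 ratios from -0.29 to 0.13 with a median of -0.16. It was below 0 on 6 of 8 arrays, with a log2 fold change of -0.12 (SE 0.05, limma adjusted p = 0.462).

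Between dye orders *Clu* differed by 0.35 (limma adjusted p = 0.255) and *Apoe* by 0.28 (adjusted p = 0.290), tested on the 4 differences within pairs with the largest p over 24 pairings, a comparison also added after the ratios had been seen. None of the 10 genes had a dye difference with p under 0.01 (0 of 10), against 4.13% of named genes. Opposite signs in the dye orders on all arrays were found in 1 of the 10, *Apoe*, and in 6.75% of named genes.

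**Figure D3:**
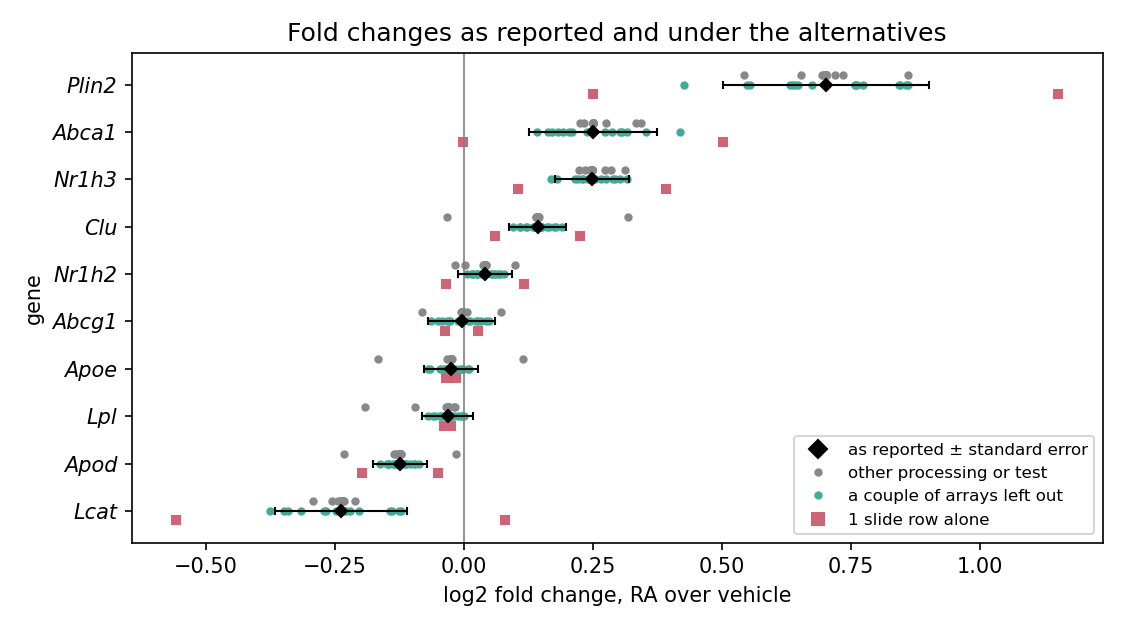
The horizontal axis gives the log2 fold change of RA over vehicle. For each of the 10 genes, a black diamond is the value as reported ± SE, grey points are other processing or tests, green points leave out an array of each dye order, and red squares are each slide row alone. *Plin2* stays between 0.25 and 1.15 and *Nr1h3* between 0.11 and 0.39, whereas *Lcat* spans from -0.56 to 0.08.

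Other genes of lipoprotein and sterol handling were taken from 7 lists that named 102 genes besides the 10, of which 80 were measured. At an unadjusted limma p under 0.01, 8 of the 80 (10%) were called by their brightest probe, against 4.31% of named genes. All 8 were higher after RA. The lists were chosen with earlier results of these data known, so these shares are a description only. The median log2 fold change over the 80 was 0.01, with 41 above 0 and 39 below. Most of the 80 were thus spread around 0, and the calls were single genes scattered over the lists.

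Among sterol traffic genes 2 of 16 were called. *Tspo*, which encodes a mitochondrial outer membrane protein that binds cholesterol and serves as a marker of activated glia, had log2 ratios of 0.95, 1.09, 1.27, 1.43, 2.30, 2.08, 2.23 and 2.27 on arrays 1 to 8. Its log2 fold change was 1.70 (SE 0.20, limma adjusted p = 0.222). *Ch25h*, an enzyme that makes an oxysterol from cholesterol, was at 1.12 (SE 0.26, limma adjusted p = 0.268), with ratios from 0.09 to 2.05. Both had every array of row 2 above every array of row 1.

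Of 9 genes for lipases and lipid transfer, *Angptl4* alone was called. It encodes a secreted inhibitor of lipoprotein lipase, and its log2 fold change was 1.21 (SE 0.29, limma adjusted p = 0.270), with 0.24 to 0.59 in row 1 and 1.85 to 2.09 in row 2. Its target enzyme gene *Lpl* differed by only -0.03. Of 13 apolipoprotein-related genes, *Apobec1*, the editing enzyme of apolipoprotein B mRNA, was called at 0.84 (SE 0.14, limma adjusted p = 0.222), with ratios from 0.17 to 1.31. The others, the apolipoproteins themselves among them, were not called.

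Of 14 lipoprotein and scavenger receptors, *Scarb1* and *Msr1* were called. *Scarb1*, which encodes the scavenger receptor for high-density lipoprotein, was at 0.20 (SE 0.05, limma adjusted p = 0.285). A further probe of it was at 0.22 (SE 0.08) and did not pass the threshold. *Sorl1*, a sorting receptor, was not called by its brightest probe, at -0.16 (SE 0.07), but a further probe of it passed the threshold as lower, at -0.24 (SE 0.06). *Msr1*, a macrophage scavenger receptor, was not well above background in any vehicle channel and was so in 6 of 8 RA channels. By mean level it was at least 1.36-fold higher after RA (limma adjusted p = 0.283). For that bound, the mean RA level was set against the lowest signal well above background on each array. The measured log2 ratios of *Msr1* were 0.0038 to 0.36 in row 1 and 0.69 to 1.03 in row 2. *Lrp1*, an endocytic receptor for apolipoprotein E named here for its role after its value had been seen, was at 0.13 (SE 0.08) and was not called.

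Of 12 lipid droplet and fatty acid binding genes, *Fabp7*, the fatty acid binding protein of radial glia and astrocytes, was called at 0.47 (SE 0.09, limma adjusted p = 0.226). *Plin5*, another perilipin, was not well above background in any channel, and *Plin1*, *Plin3* and *Plin4* had no named probe here. Of 11 nuclear receptor partners and lipid regulators, *Mlxipl*, a glucose-responsive lipogenic transcription factor, was called at 0.27 (SE 0.07, limma adjusted p = 0.290) and was above 0 on 7 of 8 arrays. The retinoid X receptor genes *Rxra*, *Rxrb* and *Rxrg*, named after their values had been seen, were at 0.02, 0.01 and -0.07. None of the 10 measured genes listed as further liver X receptor targets, a list without *Mlxipl*, was called (0 of 10). Of them, 2 had an unadjusted limma p under 0.05. The lowest p among them was that of *Lpcat3*, a phospholipid-remodelling enzyme, at 0.19 (SE 0.05, limma adjusted p = 0.309).

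**Figure D4:**
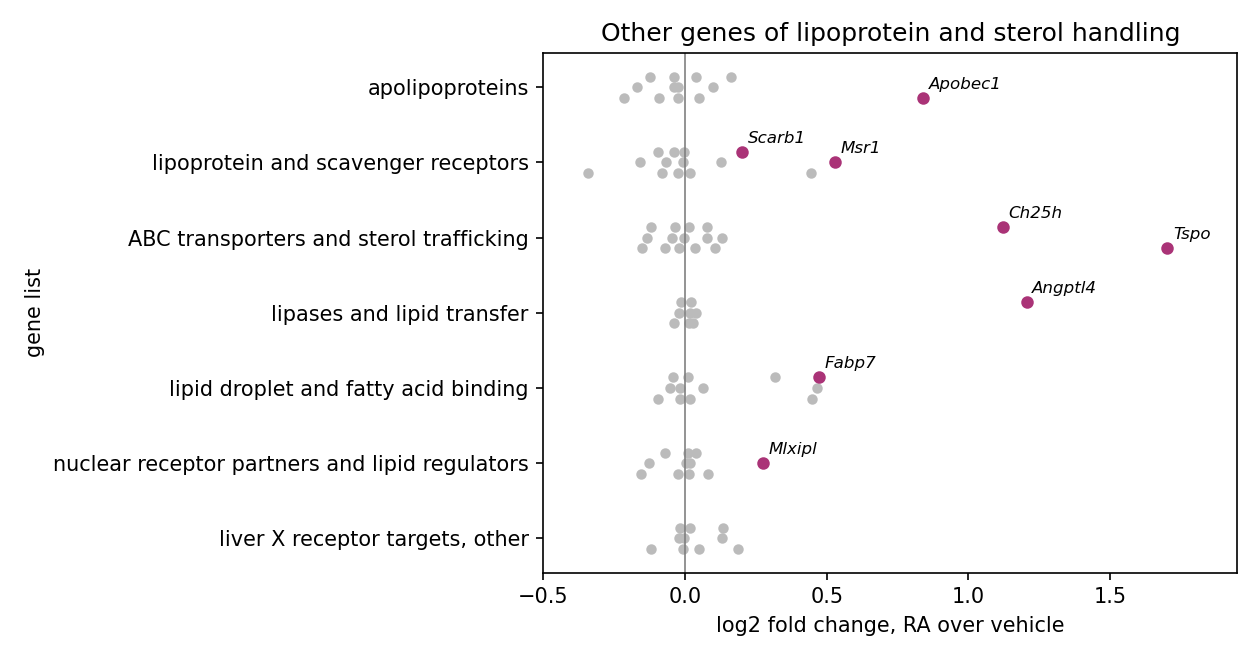
The horizontal axis gives the log2 fold change of RA over vehicle, and each point is 1 measured gene of 7 lists (a gene may stand in several). Purple points, labelled, are the 8 genes with an unadjusted limma p under 0.01, all above 0, and grey points are the others. *Msr1* stands at its fitted value, although its vehicle level was not well above background.

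The genes whose log2 ratios followed those of *Plin2* most closely were *Ssrp1*, *Rpl36a* and *Rsu1*, among 9454 genes well above background in both channels of every array. Pearson's r over the 8 arrays was 0.989, 0.987 and 0.985. The points share slide rows and hybridisations, and the likeness is given as a description. None of these genes was called, and *Ssrp1* had ratios from -0.06 to 0.35.

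The tissue label was checked against marker genes. All 9 measured hypothalamic neuropeptide genes and all 8 astrocyte and 8 oligodendrocyte markers were well above background in both channels of every array. The list median of microglia and macrophage markers was higher in slide row 2 than in row 1, as were the row means of *Plin2*, *Abca1* and *Nr1h3*, whereas that of *Lcat* was lower there. The microglia and macrophage median ranged from 0.03 to 0.32 on arrays 1 to 4 and from 0.89 to 1.02 on arrays 5 to 8. Row means of *Aif1*, *Ptprc*, *Itgam*, *Cd68* and *Csf1r* were higher in row 2. Those of *Cx3cr1* (0.16 in row 1 and 0.01 in row 2) and *Tmem119* (-0.39 and -0.64) were lower there. *P2ry12* was below 0 in both rows (-0.25 and -0.04). Of the 8 markers, 4 were called higher (*Aif1*, *Ptprc*, *Itgam* and *Cd68*) and 1 lower (*Tmem119*, a marker of resident microglia, at -0.52), and none was at background. The log2 of their summed intensity ranged from 13.34 to 13.86 in vehicle and from 13.62 to 14.55 in RA. The part of these cells in the values of the 4 genes was not tested.

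Astrocytes make most of the brain's *Apoe*, and of their 8 markers *Gfap* was called higher at 1.40 and *Gja1* lower at -0.22. Their list median was -0.12, and the log2 summed intensity was 17.21 to 17.54 in vehicle and 17.13 to 17.51 in RA. Of 8 oligodendrocyte markers, 7 were below 0 and 1, *Opalin*, was called lower, with a list median of -0.19 and log2 summed intensities of 16.88 to 17.54 in vehicle and 16.63 to 17.18 in RA. Of 8 choroid plexus markers none was called in limma (0 of 8, none with p under 0.05), but on arrays 6 and 7, where *Plin2* was highest, the ratios of *Ttr* were -4.47 and -5.11. Log2 summed intensities of that list ranged from 10.28 to 17.93 in vehicle and from 10.57 to 17.08 in RA. On the same arrays, in order, *S100a9* of the blood cell list was at 2.83 and 2.75 and *S100a8* at 2.22 and 2.34. *Vim* of the tanycyte and ependymal list was at 1.22 and 1.33 there. Each lay above its value on all remaining arrays. Not all other members of these lists followed. The list medians on arrays 6 and 7 were 0.51 and 0.23 for blood cells, and 0.21 and 0.01 for tanycyte and ependymal genes. The remaining lists had medians from -0.13 (neurons) to 0.07 (blood cells), and their called genes were *S100a9* at 1.25 and *Vim* at 0.63, higher after RA, and *Cartpt* of the neuropeptide list at -0.42, lower. Of these, the neuropeptide list stood apart on arrays 5 and 8, with medians of -0.59 and -0.64. Its medians were 0.05 to 0.33 on arrays 1 to 4, and -0.02 and -0.05 on arrays 6 and 7. Its log2 summed intensity was 16.60 to 17.70 in vehicle and 16.91 to 17.39 in RA. The part of these cells in the results was not tested.

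**Figure D5:**
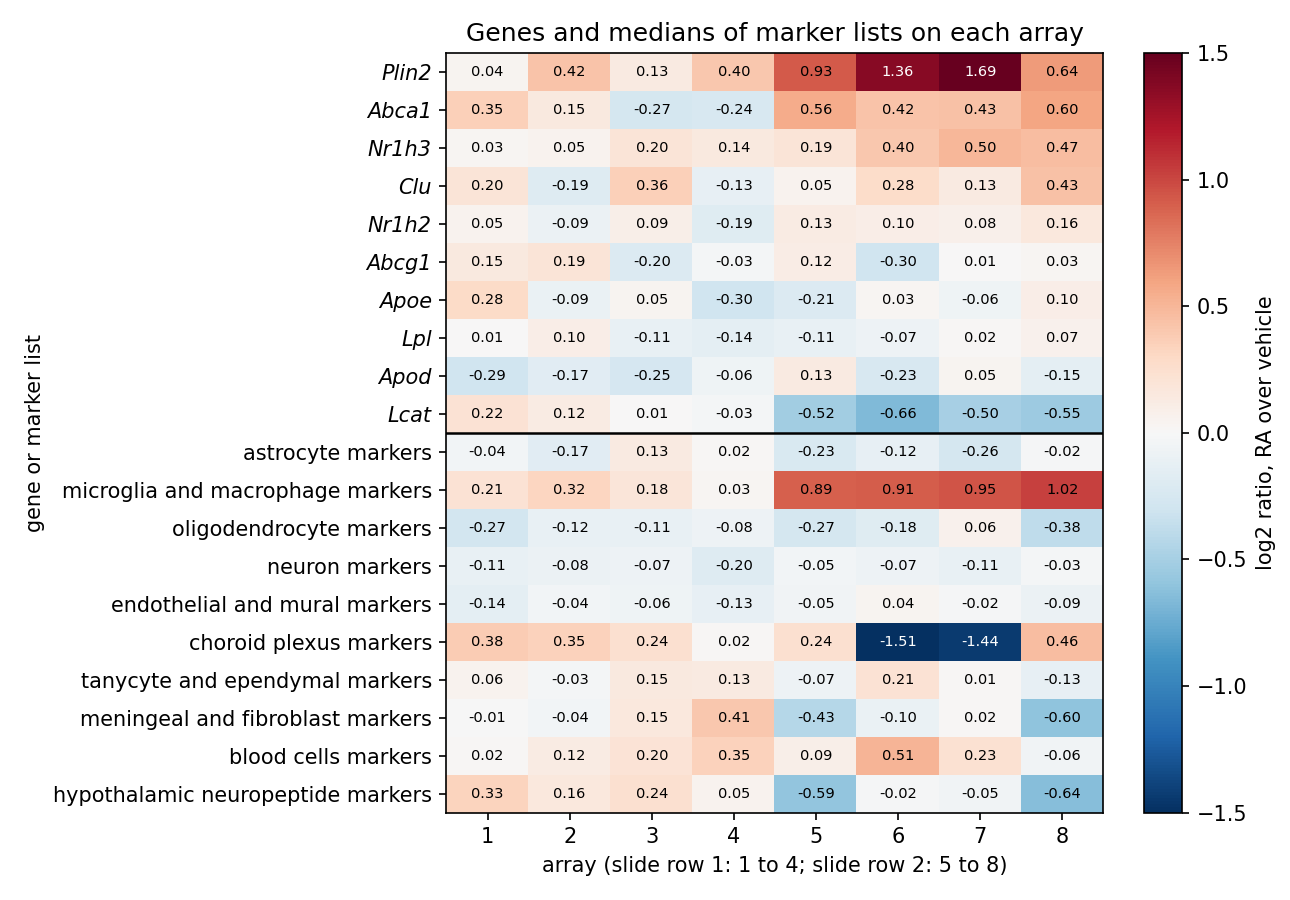
Each cell gives the log2 ratio of RA over vehicle on 1 array, for the 10 genes above the line and as the median of each marker list below it, with arrays grouped by slide row. The microglia and macrophage list and *Plin2* are higher on arrays 5 to 8, and the choroid plexus list is at -1.51 and -1.44 on arrays 6 and 7.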

How the data were processed

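RA-injected and vehicle-injected rat hypothalami (4 rats each) were compared on 8 two-colour Agilent arrays. The authors deposited scanner intensity values per spot and Agilent's log10 ratio, and a table of normalised log2 ratios, which they made with limma and loess. From the values, that table runs as RA over vehicle on every array (r of 0.985 or higher with loess ratios without background correction), and its arrays have medians near 0. The labels and headers give genome build rn4 for the probe design.

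Here, R 4.3.3 and limma 3.58.1 were used on median signals: normexp with an offset of 50, removal of control and outlier-marked spots, loess within arrays, averaging of spots per probe, and no scaling between arrays. RA and vehicle levels are channel intensities after Aquantile normalisation. Probes were named through RefSeq accessions of GRCr8 (18006 of 30367 probes), and the brightest probe stood for a gene. The test was an intercept on 4 pair means with the largest p of 24 pairings, and adjustment (Benjamini-Hochberg) covered 30367 probes. A probe was well above background where at least 0.5 of its spots were marked so. The members and gene lists were chosen with earlier results of these data known. The text names the 10 genes, up to 3 called genes per pathway list, the 3 genes most like each called gene, and marker genes. The procedure was tested on simulated data. The number of arrays limits the precision.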

Additional observations from a re-analysis of the deposited data

Results flagged for a closer look

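*Apoe*, which encodes the main apolipoprotein of brain lipoproteins, had log2 ratios of RA over vehicle above 0 on all 4 arrays with RA in Cy5 and below 0 on all 4 with RA in Cy3. Its mean was 0.12 in the first order and -0.17 in the second, a difference of 0.281 (limma adjusted p = 0.290). Opposite signs of this kind were found in 6.75% of named genes. No array of the 10 genes stood apart from the other 3 of its dye order by Dixon's test (0 of 20 groups).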

How the results depend on the processing

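*Plin2* and *Nr1h3* stayed above 0 and *Apod* below 0 under all 33 alternatives, but calls at an unadjusted limma p under 0.01 depended on the fit, and the causes were not tested. The log2 fold change of *Plin2* was not called with no background correction (0.695), Agilent's log ratio (0.720), plain subtraction (0.735), the deposited values (0.695), only bright probes (0.702), only RA in Cy5 (0.543) or the mean of all probes of a gene (0.702). The last and the bright-probe fit test fewer features. *Nr1h3* was called without background correction (0.244), with scaled arrays (0.235) and with neighbouring pairs as a random block (0.248, correlation 0.337). It was also called in slide row 2 (0.391), with row as a block (0.248) and as 8 independent arrays (0.248). The last fit ignores that dye-swap arrays re-use the same RNA samples, so its calls overstate the evidence. Also called were *Apod* (-0.232) and *Clu* (0.319) with only RA in Cy5, and *Lcat* with row as a block (-0.238). In row 2 *Abca1* (0.503) and *Lcat* (-0.557) were called, but these genes had been singled out by the same ratios.

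Signs turned for *Apoe* with only RA in Cy5 (0.115), for *Clu* (-0.0326), *Abcg1* (0.0723) and *Nr1h2* (-0.0179) with only RA in Cy3, and in row 1 for *Abca1* (-0.00121), *Abcg1* (0.0284), *Nr1h2* (-0.0345) and *Lcat* (0.0808). *Abcg1* also turned with Agilent's log ratio (0.00558) and scaled arrays (4.25e-05).

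With an array of each dye order left out (16 fits), log2 fold changes ranged from 0.427 to 0.861 for *Plin2*, 0.170 to 0.317 for *Nr1h3*, 0.142 to 0.419 for *Abca1*, -0.375 to -0.121 for *Lcat*, 0.0961 to 0.189 for *Clu*, -0.162 to -0.0866 for *Apod*, -0.0701 to 0.0108 for *Apoe*, -0.0631 to 0.0481 for *Abcg1*, -0.0702 to 0.000951 for *Lpl* and 0.00666 to 0.0777 for *Nr1h2*.

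Of the 10 genes, 1 was called as reported. None was called (0 of 10) with Agilent's log ratio, plain subtraction, the deposited values, bright probes or the mean of probes. With scaled arrays, the random block, independent arrays or RA in Cy5, 2 were called. Row as a block gave 3, and leaving arrays out gave 0 to 2. In row 2 alone 4 were called, but no share of all probes is given beside that count, so it is a description only. Of the other pathway genes 8 were called, 3 with plain subtraction, 5 with Agilent's log ratio, 13 with the random block, 14 as independent arrays, 12 with row as a block, and 4 to 10 with arrays left out (4 without arrays 8 and 5, 8 and 7 or 6 and 5, and 5 without arrays 6 and 7). Of all probes 988 were called, 243 with plain subtraction, 330 with Agilent's log ratio, 1796 with the random block, 2480 as independent arrays, 2169 with RA in Cy5, 2323 with RA in Cy3, 1595 with row as a block and 455 to 1111 with arrays left out. Dim probes, such as those of *Lpl* and *Msr1*, limit what can be seen of low genes.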
